A study of Mus musculus with 4 samples.

Results

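Neurexins and neuroligins were examined in the m6A peak lists of mouse spinal cord. The 5 genes *Nrxn2*, *Nrxn3*, *Nlgn1*, *Nlgn2* and *Nlgn3* were taken by name from the deposited tables, out of 13558 gene names in all. They held 36 of the 33556 peaks of the CCI list, 37 of the 34406 peaks of the sham list and 9 of the 4812 rows of the table of differential peaks. Every member had peaks in both lists, so none was without a peak.

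Neurexins are presynaptic adhesion proteins that reach across the synaptic cleft, and neuroligins are their classical postsynaptic partners. Neurexin genes give long alpha and short beta forms from separate promoters, and their transcripts are spliced in many ways. NLGN1 is best known from excitatory synapses, NLGN2 from inhibitory synapses, where it binds the scaffold gephyrin, and NLGN3 from both. m6A is a methyl mark on adenosine within mRNA, often found near the stop codon and in the 3′-UTR, and proteins that read it influence the splicing, decay and translation of the transcript.

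The spinal cords were from mice of the C57BL/6J strain, 6 to 8 weeks old, and were collected on day 7 after surgery. In the chronic constriction injury (CCI) group the sciatic nerve was loosely tied, and in the sham group it went through the same operation untied. Each group had 1 library of RNA pulled down with an m6A antibody (IP) and 1 library of the RNA before the pull-down (input), so differences between the groups rest on single libraries, with no replicate check and no test. The number of mice behind a library is not given. The paper names the tissue of this assay only as spinal cord and describes no sorting of cells. Fewer cells of a type and less RNA per cell therefore cannot be told apart. Genes that mark the cells of spinal cord held peaks in both lists. These were 4 of 5 neuronal markers (all but *Nefl*), 4 of 4 for oligodendrocytes, 4 of 4 for astrocytes, 4 of 4 for microglia and 3 of 4 Hox genes of spinal level (all but *Hoxc9*).

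Fold enrichment is the ratio of IP over input in a peak. The log10 p is the score of the same peak for IP against input, and a lower score means a stronger peak. A peak of one list and a peak of the other were called a shared peak when each was the other's best partner by shared exonic bases. The change of a shared peak is the log2 of CCI over sham fold enrichment, and 1 or more in size was taken as past the fold. No read counts came with the tables, so the depth behind a peak is unknown and no interval is put on a fold enrichment.

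The sequences that could be read under member peaks lie at the start of *Nlgn2* and near the start of *Nlgn1*, where the values below differ most among the neuroligins. They are shown 5′ to 3′ on the strand of the gene, from RefSeq on GRCm38.p6. Both genes are on the minus strand. The *Nlgn2* stretch is chr11:69837755-69837784, the first 30 bases of the gene, all under a peak of both lists. The *Nlgn1* stretch is chr3:26331860-26331889, under a sham peak up to the border where the CCI peak begins. Its promoter window, chr3:26331860-26332159, belongs to a start inside the gene, whose RefSeq span reaches 26332866. Capitals mark GTCC, which is GGAC, the core of the common m6A motif, read on the other strand.
Nlgn2: gacgcgcggggctgctgcggctgctccgcc
Nlgn1: cgttgcatcctgccccctcgGTCCttcttc
In the 50 bases of the *Nlgn2* promoter window under the peak there was no GGAC on either strand. The window runs from 250 bases before to 50 after the start, and 18.9% of 32851 RefSeq promoters hold GGAC on the gene strand in the same stretch, or 33.3% on either strand. In the 148 bases of the *Nlgn1* window under the sham peak, GGAC occurred 0 times on the gene strand and 1 time on the other. For that stretch the shares of promoters were 42.7% on the gene strand and 66.5% on either strand. A match is a description of letters and not a methylated site.

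By score, the strongest peak of all 5 members was annotated as 3′-UTR. The annotation is given per row, and the rows of *Nrxn2* and *Nlgn2* are spliced, so not all of their bases need lie there. By fold enrichment the highest peak was in the 5′-UTR for *Nlgn2* (546 in sham) and, in CCI, in an exon for *Nlgn1* (21.4). In the sham list the peak with the lowest log10 p of each gene had a fold enrichment of 85.2 in *Nlgn2*, 60.8 in *Nrxn2*, 15.9 in *Nrxn3*, 14.1 in *Nlgn1* and 12.8 in *Nlgn3*. The CCI values of the same peaks were 62.8, 54.6, 13.7, 14.3 and 12.6 in that order, so the order of the genes was kept except that *Nlgn1* came before *Nrxn3*. Neighbours in this order cannot be separated, since there is no spread over samples. The log2 changes were −0.44, −0.16, −0.21, 0.02 and −0.02, and 0 of 5 were past the fold. Among all shared peaks that scored at least as strongly, 7.43% were past it.

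**Figure D1:**
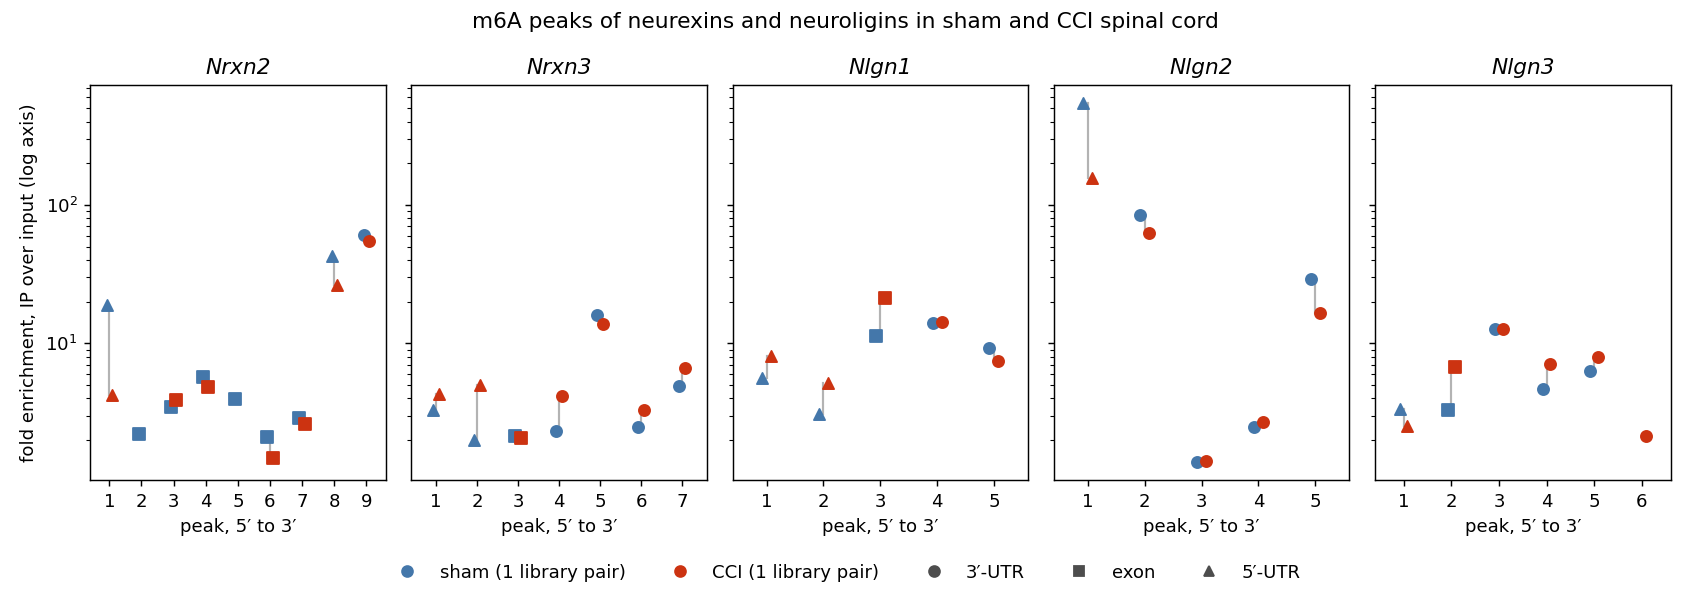
Fold enrichment of IP over input (log axis) for the 29 shared peaks of the 5 genes and for their peaks without overlap in the other list. Peaks are ordered 5′ to 3′ along the transcript, with sham in blue, CCI in red and the shape giving the region. Rows that overlap the other list without being a shared peak are not drawn. Among these are near-duplicates and the *Nlgn1* sham rows that overlap CCI rows named *A830092H15Rik*. *Nlgn2* stands highest at its first peak (546 in sham and 157 in CCI), and the strong 3′-UTR peaks of *Nrxn2*, *Nrxn3*, *Nlgn1* and *Nlgn3* have nearly the same height in both lists. Peaks with 1 symbol are in 1 list only.

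The members carried more peaks than a typical gene. They had 5 to 11 peaks each in CCI and 5 to 9 in sham, where the median over genes with a peak was 2. At least 5 peaks were found in 14.7% of the genes of the CCI list and 13.9% of the genes of the sham list. Rows of *Nlgn1* and *Nlgn3* partly overlap one another, and merging them left 31 separate sites in CCI and 32 in sham. By annotation 16 of the 36 CCI rows were 3′-UTR peaks, 11 exon peaks and 9 5′-UTR peaks, and the 37 sham rows divided into 15, 10 and 12. In the whole CCI list the shares were 49.8%, 35.5% and 14.7%, and in the whole sham list 48.9%, 35.1% and 16.1%.

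The 5 genes gave 29 shared peaks, of which 14 were lower and 15 higher in CCI. Their median log2 change was 0.02, with a middle range of −0.30 to 0.45, beside 0.03 and −0.37 to 0.43 for all 27380 shared peaks. Past the fold were 4 of the 29, or 13.8%, against 15.8% of all shared peaks. Of these 4, 2 were at −1 or below and 2 at 1 or above, where the shares of all shared peaks were 7.25% and 8.59%. The share of the members is thus near that of shared peaks in general, and the values below describe single peaks.

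By region, the 14 shared 3′-UTR peaks had a median log2 change of 0.03, and all lay between −0.82 and 0.84. Of all shared 3′-UTR peaks, 14.9% were past the fold. The 7 shared exon peaks had a median of −0.04, with 1 past the fold, or 14.3%, against 13.8% of all shared exon peaks. The 8 shared 5′-UTR peaks had a median of −0.01 but spread from −2.16 to 1.33. In this region 3 of 8 were past the fold, or 37.5%, against 23.5% of all shared 5′-UTR peaks.

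**Figure D2:**
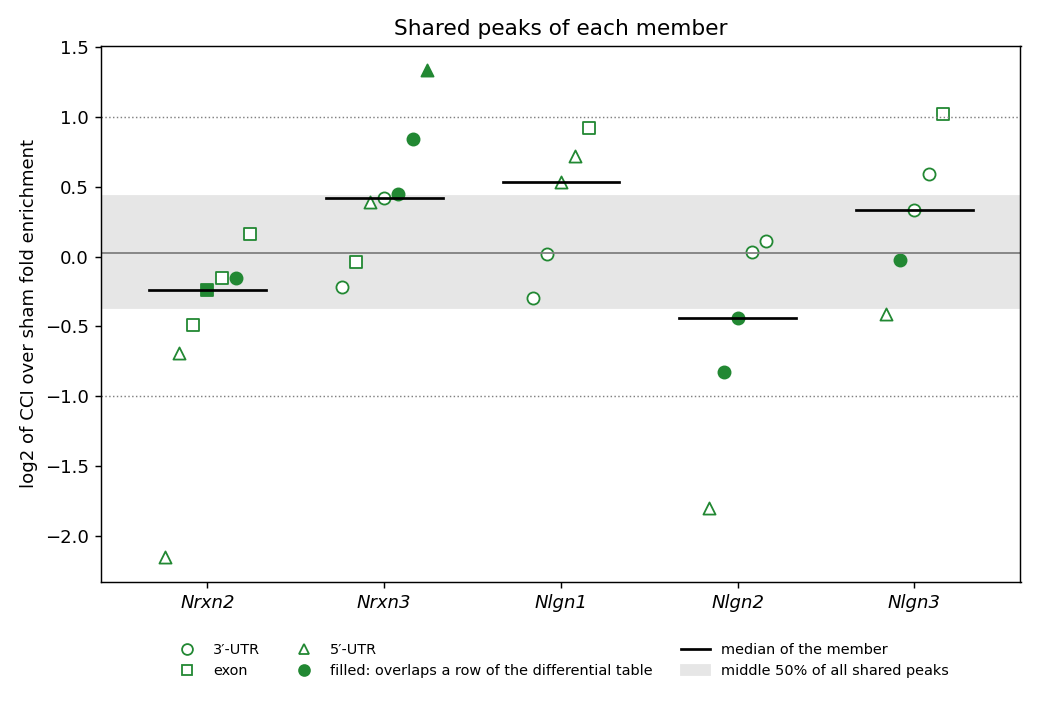
log2 of CCI over sham fold enrichment for the 29 shared peaks, by gene, with a black line at the median of each gene and dotted lines at the fold of 1 in either direction. The grey band is the middle of all shared peaks, from −0.37 to 0.43. The lowest points are the 5′-UTR peaks of *Nrxn2* (−2.16) and *Nlgn2* (−1.80), and the highest is the 5′-UTR peak of *Nrxn3* (1.33). Filled symbols overlap a row of the table of differential peaks.

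*Nrxn2* (ENSMUSG00000033768, chr19:6418731-6533217 on GRCm38, plus strand) encodes a presynaptic neurexin. Of its 7 shared peaks 6 were lower in CCI and 1 was higher, with a median log2 change of −0.24. The peak at the start of the gene, chr19:6418731-6427893 with exonic blocks in the 5′-UTR, was enriched 18.9-fold in sham and 4.24-fold in CCI. That is a log2 change of −2.16, lower than all but 0.975% of shared peaks. The log10 p of this peak was −23.7 in sham and −14.8 in CCI. The RefSeq long noncoding RNA *Gm14965* ends at 6418762, just inside the peak, and its part in the value was not tested.

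A second 5′-UTR peak of *Nrxn2* lay inside the gene, at chr19:6497796-6498485, where the sham value was 43.0 and the CCI value 26.6 (log2 −0.69). Between these lay the exon peaks. The sham peak chr19:6472318-6481236, annotated to exon 8 of 23, had 5.74 in sham and 4.86 in CCI, and its log10 p was −130 and −41.7. The peaks at exons 13 and 15 had 2.09 and 2.91 in sham and 1.49 and 2.61 in CCI. The peak from chr19:6450552 was the one higher in CCI, with 3.49 in sham and 3.91 in CCI. The long 3′-UTR peak chr19:6517032-6532350, spliced over 1379 exonic bases, was near equal in both lists (log2 −0.16). It shares 207 bases with peaks of the antisense gene *Gm14964*, whose fold enrichment was 5.58 (sham) and 4.22 (CCI), and since it is not given whether peak calling used the strand of these strand-specific libraries, the reads of the pair cannot be told apart. The exon 15 peak likewise lies within the span of the RefSeq long noncoding RNA *Gm52381*.

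*Nrxn3* (ENSMUSG00000066392, chr12:88722876-90334935, plus strand), the other neurexin, leaned the other way. Of 7 shared peaks 2 were lower and 5 higher in CCI, with a median log2 change of 0.42. The 5′-UTR peak chr12:88795070-88795160 was enriched 1.99-fold in sham and 5.02-fold in CCI (log2 1.33). It covered 91 exonic bases in sham and 241 in CCI, and its log10 p was −3.72 in sham and −18.1 in CCI. The peak at the start of the gene had 3.29 in sham and 4.32 in CCI, and it was annotated as 5′-UTR in sham and as exon 1 of 8 in CCI.

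In the 3′-UTR of *Nrxn3*, 3 weaker peaks were higher in CCI and the strongest was not. The peak chr12:90321961-90322140 had 2.34 in sham and 4.20 in CCI with the same borders (log2 0.84). Further along, chr12:90332929-90333079 had 2.47 and 3.31, and the peak from chr12:90333378 had 4.88 and 6.65. The strongest peak, chr12:90331492-90332720, was slightly lower in CCI (15.9 and 13.7, log2 −0.21), and the peak at exon 16 of 19 was near equal (2.14 and 2.08). The direction given for *Nrxn3* therefore depends on whether its median or its strongest peak is taken.

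*Nlgn1* (ENSMUSG00000063887, chr3:25426215-26332460, minus strand) encodes the neuroligin of excitatory synapses. Of its 5 shared peaks 1 was lower and 4 were higher in CCI, with a median log2 change of 0.53, and none was past the fold. The highest of these was the peak at exon 7 of 8, chr3:25436025-25436594, enriched 11.3-fold in sham and 21.4-fold in CCI (log2 0.92). Its log10 p was nearly the same, −58.1 and −56.5. The 3′-UTR held a pair of adjoining peaks with the same borders in both lists, at 14.1 in sham and 14.3 in CCI for the longer (chr3:25433465-25434363) and at 9.18 and 7.48 for the shorter. The 5′-UTR peak from chr3:26133442 had 3.11 in sham and 5.13 in CCI.

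Near the start of *Nlgn1* the names in the lists differ. The sham rows chr3:26331800-26332007 and chr3:26331801-26332011, with fold enrichments of 11.6 and 12, carry the name *Nlgn1*. The CCI rows that overlap them, chr3:26331889-26332007 and chr3:26331891-26332011, had 5.04 and 4.69 and carry the name of *A830092H15Rik*, a long noncoding RNA on the opposite strand. The log2 changes were −1.20 and −1.36, and these rows are not among the 29 shared peaks. The neighbouring shared peak from chr3:26332155, at 5.58 in sham and 8.08 in CCI, lies within the RefSeq span of the same long noncoding RNA. Its near-duplicate row had 3.49 in sham and 8.34 in CCI (log2 1.26), which would be past the fold. Which of the genes gave the reads cannot be told apart. The GTCC of the *Nlgn1* sequence lies in the part that is under the sham row and outside the CCI row.

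*Nlgn2* (ENSMUSG00000051790, chr11:69823122-69834849, minus strand, reaching 69837784 in RefSeq) encodes the neuroligin of inhibitory synapses, and it held the highest values of all members. Its 5′-UTR peak, chr11:69834387-69837784 with 1200 exonic bases, was enriched 546-fold in sham and 157-fold in CCI. The borders were the same in both lists, the log2 change was −1.80 and 1.72% of shared peaks lay at or below it. The log10 p was nearly the same, at −236 in sham and −223 in CCI. The ratio of IP over input was thus lower in CCI in a peak whose score was nearly the same. The input and IP levels behind the ratio are not in the tables.

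Of the 5 shared peaks of *Nlgn2*, 3 were lower and 2 higher in CCI, with a median log2 change of −0.44. The peak at the very end of the 3′-UTR, chr11:69823122-69823392, had 29.4 in sham and 16.6 in CCI with the same borders (log2 −0.82). The strongest peak, chr11:69824171-69827232, had 85.2 and 62.8. The weak peaks between them were near equal, with 2.49 and 2.69 for chr11:69823602-69823781 and with 1.38 and 1.41 for the peak from chr11:69823991. The 3 peaks with a sham fold enrichment above 29 were thus the lower ones in CCI.

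*Nlgn3* (ENSMUSG00000031302, chrX:101299168-101325963, plus strand) encodes a neuroligin of both kinds of synapse. Most of its rows come in near-duplicate pairs that differ by a few bases, and the exon rows are annotated to a transcript of a second gene identifier, ENSMUSG00000096056. Its 11 CCI rows and 8 sham rows merge to 7 and 5 sites. Of 5 shared peaks 2 were lower and 3 higher in CCI, with a median log2 change of 0.34. The peak at exon 10 of 11, chrX:101318227-101318496, was enriched 3.30-fold in sham and 6.71-fold in CCI (log2 1.02), just past the fold. Its near-duplicate, with 3.23 in sham and 6.42 in CCI, was just short of it (log2 0.99), so this call rests on which row is kept.

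The strongest *Nlgn3* peak differed between the lists in shape more than in height. Sham had 1 block of 1705 bases, chrX:101319495-101321199, with a fold enrichment of 12.8. In CCI the same stretch was listed as an exon 11 peak of 300 bases, chrX:101319495-101319794, with 6.72, and a 3′-UTR peak of 1227 bases, chrX:101319952-101321178, with 12.6. The gap between them is 157 bases. The next 3′-UTR peaks were higher in CCI, with 4.68 and 7.07 for the peak from chrX:101321507 and with 6.34 and 8.00 for the peak from chrX:101321866. Both begin past the RefSeq end of the gene, at 101321350. The 5′-UTR peak from chrX:101302140 was lower, with 3.35 in sham and 2.52 in CCI.

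**Figure D3:**
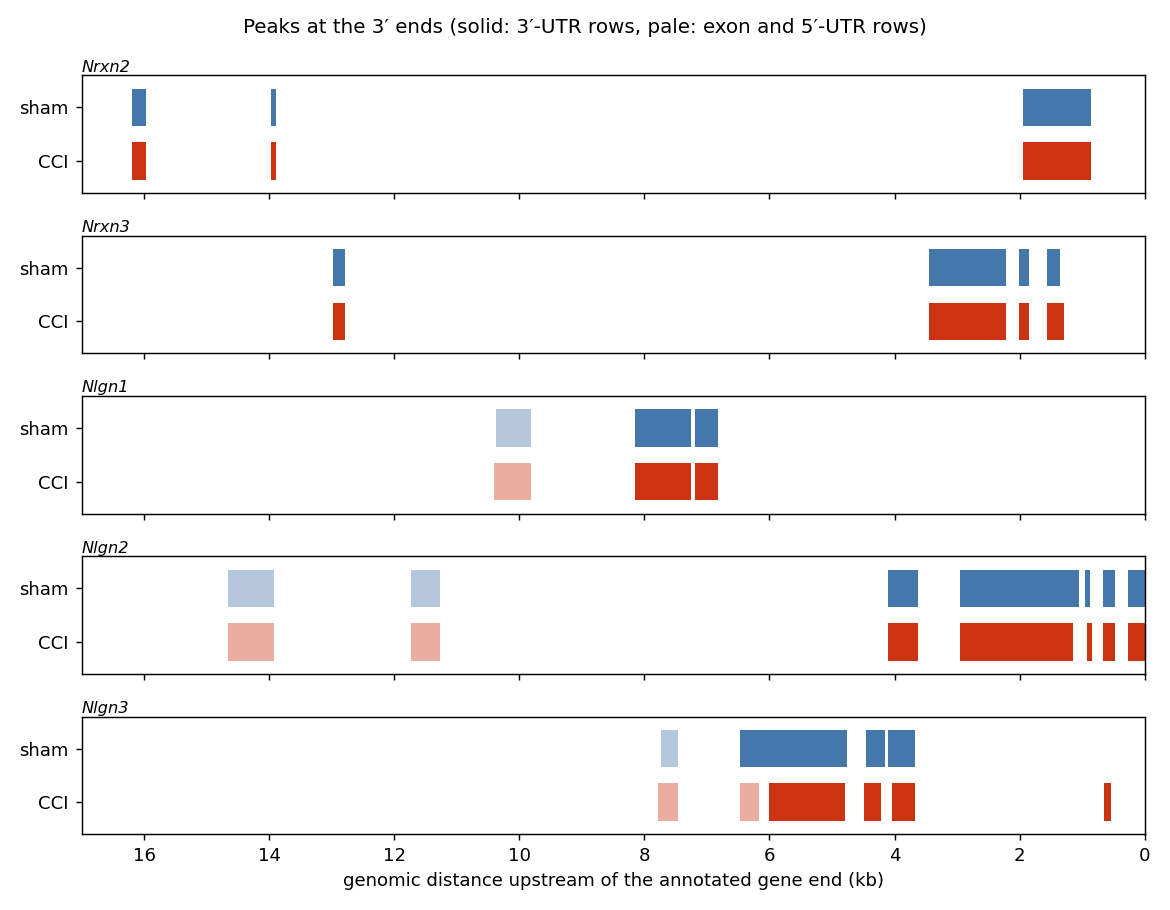
Peaks of each gene by genomic distance upstream of the annotated gene end (kb, 5′ on the left), sham above CCI, with 3′-UTR rows solid and other rows pale. Pieces far apart in *Nrxn2* and *Nlgn2* belong to spliced rows. The plotted 3′-UTR peaks of *Nrxn2*, *Nrxn3*, *Nlgn1* and *Nlgn2* are found in both lists, some with shifted borders, while the long sham block of *Nlgn3* (1705 bases) is split in CCI by a gap of 157 bases.

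Few member peaks were in 1 list only. In CCI it was 1 of 36, against 12.3% of all CCI peaks (11.9 to 12.6 as a 95% Wilson interval, which covers counting error only). This was the *Nlgn3* 3′-UTR peak chrX:101325305-101325425, with a fold enrichment of 2.15 and a log10 p of −4.82, which begins 3955 bases past the RefSeq end of the gene. In sham it was 2 of 37, against 16.1% of all sham peaks (15.8 to 16.5). Both were exon peaks of *Nrxn2*, chr19:6428372-6428492 with 2.21 and chr19:6482130-6482280 with 3.95, and their log10 p values were −5.68 and −3.17. By log10 p, these 3 were the weakest peaks of their genes in their lists.

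The table of differential peaks named 4 of the 5 members, all but *Nlgn1*. It names 25.3% of all gene names of the peak lists, and 56.8% of those with at least 5 sham peaks, the fewest of any member. The rows were 3 for *Nrxn3* and 2 each for *Nrxn2*, *Nlgn2* and *Nlgn3*, where the *Nlgn3* rows are near-duplicates. The fold enrichment over both groups in these rows, as deposited by the authors, was 74.1 and 22.5 in *Nlgn2*, 58.0 and 4.47 in *Nrxn2*, 13.3 and 12.6 in *Nlgn3*, and 5.35, 3.80 and 2.99 in *Nrxn3*.

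Of the 29 shared peaks of the members 8 overlapped such a row, or 27.6%, against 15.8% of all shared peaks. Strong peaks overlapped such rows more often. Among shared peaks with a sham log10 p of −261 or lower, the score of the weakest of the members' strongest peaks, 1175 of 2451 did. Of the member peaks that reach this score, those of *Nrxn2*, *Nlgn2* and *Nlgn3* overlapped such a row and those of *Nrxn3* and *Nlgn1* did not. The other member peaks scored more weakly, so this background does not cover them. The 8 member peaks were 5 lower and 3 higher in CCI, between −0.82 and 1.33. Of the 4 member peaks past the fold 1 was among them, the 5′-UTR peak of *Nrxn3*, beside the 15.8% of all shared peaks of any change. The 5′-UTR peaks of *Nrxn2* and *Nlgn2* and the exon peak of *Nlgn3* were not. The share among all shared peaks past the fold was not counted, and 4 peaks are too few to set the 2 measures against each other.

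Lists of genes that work with neurexins and neuroligins were set beside them, with no test. Of 21 neurexin partners outside the neuroligins, such as cerebellins, calsyntenins, latrophilins and LRRTM proteins, 20 had a peak (all but *Lrrtm2*), and 66 shared peaks had a median log2 change of 0.11, with 3 lower and 6 higher past the fold. Of 27 related adhesion genes, such as teneurins, SLITRK and FLRT proteins, 27 had a peak, and 114 shared peaks had a median of 0.14, with 9 lower and 4 higher. Of 17 intracellular partners, proteases and splicing regulators 16 had a peak (all but *Cask*), and 43 shared peaks had a median of 0.00, with 4 lower and 4 higher. Over these 65 genes 13.5% of 223 shared peaks were past the fold, close to the 13.8% of the members and the 15.8% of all shared peaks.

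The table of differential peaks named 8 of the 21 neurexin partners, 10 of the 27 adhesion genes and 6 of the 17 intracellular partners, or 38.1%, 37.0% and 35.3%, between the 25.3% of all gene names and the 56.8% of those with at least 5 sham peaks. Of 16 postsynaptic scaffold genes, a list that shares genes with the last one, it named 10, or 62.5%. The 65 shared peaks of the scaffold genes had a median log2 change of 0.06, with 2 lower and 8 higher past the fold, or 15.4%, against 15.8% of all shared peaks. The lowest changes in the related lists were in *Khdrbs3*, *Ntrk3* and *Lrrtm4*. The 5′-UTR peak of *Khdrbs3*, which encodes a regulator of neurexin splicing, was enriched 45.3-fold in sham and 2.37-fold in CCI (log2 −4.26). An exon peak of *Ntrk3*, a neurotrophin receptor that also acts in synaptic adhesion, had 29.1 and 5.47 (log2 −2.41), and a 3′-UTR peak of *Lrrtm4*, a postsynaptic ligand of neurexins, had 19.8 and 4.69 (log2 −2.08). The log10 p in sham and CCI was −40.4 and −17.1 for *Khdrbs3*. The other peaks scored weakly, with −9.19 and −4.86 for *Ntrk3* and −8.56 and −4.45 for *Lrrtm4*. By log2 change, the lowest member peak, that of *Nrxn2* at −2.16, lies between those of *Ntrk3* and *Lrrtm4*.

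The highest changes given here were in the 3′-UTR. *Dlg3* and *Dlg4*, which encode scaffolds that bind the tails of neuroligins, had 8.40 and 19.1 in sham and 74.5 and 83.4 in CCI (log2 3.15 and 2.13). The log10 p changed little in *Dlg3*, from −43.1 in sham to −43.7 in CCI, and was −21.3 and −27.3 in *Dlg4*. Most sham peaks were found in *Ntrk3* (13) and *Tenm4* (10), followed by *Slitrk5* and *Tenm3* with 9 each, and *Nrxn2* also held 9. By median log2 change, the gene of these lists nearest to each member was *Ptprs* for *Nrxn2* (−0.24), *Tenm3* for *Nrxn3* (0.42), *Flrt3* for *Nlgn1* (0.50), *Nxph1* for *Nlgn2* (−0.42) and *Flrt2* for *Nlgn3* (0.33), out of 50 genes with at least 2 shared peaks. This likeness is over 2 groups only and rests on 1 median per gene, for which a near match among 50 genes is likely. *Flrt3* and *Nxph1* had 2 shared peaks each, at 0.21 and 0.79 in *Flrt3* and at −1.13 and 0.30 in *Nxph1*. The peaks of *Flrt2* ran from −1.23 to 0.73.

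**Figure D4:**
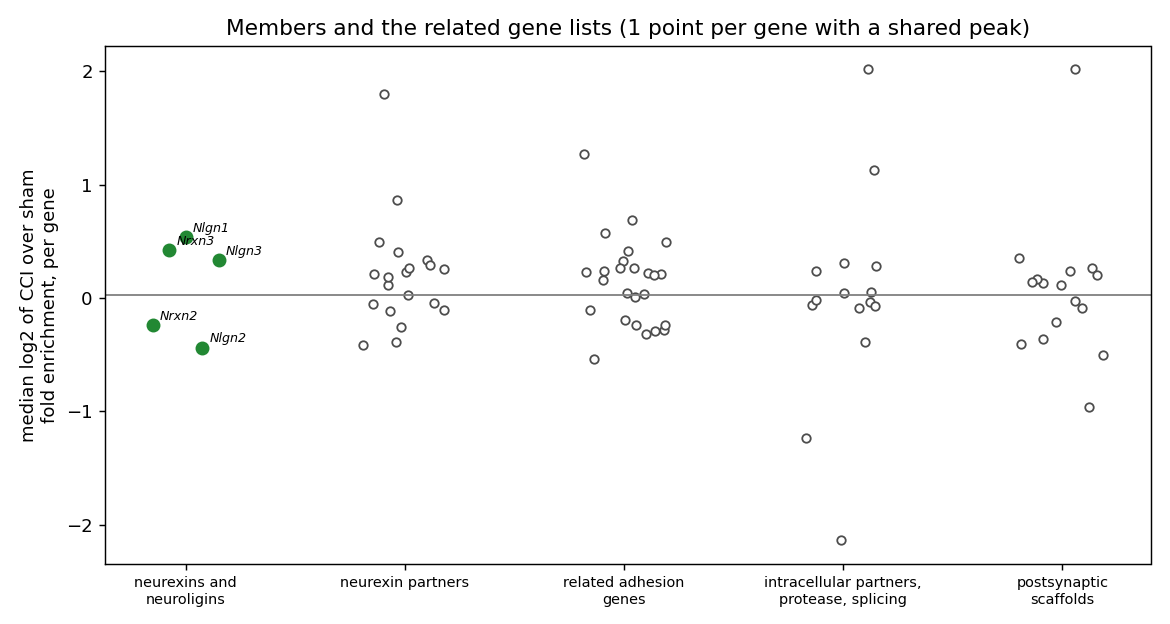
Median log2 of CCI over sham fold enrichment per gene, with the 5 members in green beside the genes of the related lists as open circles and a grey line at the median of all shared peaks (0.03). The members run from *Nlgn2* (−0.44) to *Nlgn1* (0.53), and some genes of the related lists lie further out in both directions.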

How the data were processed

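MeRIP-seq was performed on spinal cord from CCI and sham mice, with 1 IP and 1 input library per group. The paper names Cutadapt, bowtie, MACS2 and ChIPseeker, while per the labels' processing notes fastp, HISAT2, HOMER and ChIPseeker were used on GRCm38. The libraries were strand-specific (dUTP method). The column names of the tables are those of exomePeak, and whether peak calling used strand is not given in the sources used here. The fold enrichment in the 3 deposited tables is a ratio of IP over input made by the authors. The deposited log10 p-values and false discovery rates are the authors' scores of IP against input. The table of differential peaks also holds the authors' own comparison of CCI with sham (a log2 fold change, a p-value and a false discovery rate), which was not used. From it only positions, names and the fold enrichment were taken.

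Peaks were paired by their exonic blocks (at least 1 bp shared, mutual best partners, both named for the gene) with Python 3.11.15 and pandas 2.3.3. Pairing was tested on simulated data, where 2700 of 2700 true pairs among 3000 simulated peaks were recovered. The simulated peaks were single blocks set far apart under one gene name. Near-duplicate, spliced and split peaks, which the members have, were not simulated, so their pairing was not tested. CCI and sham were not tested against each other, since neither had replicates. Depth is unknown, and Wilson intervals cover counting error only. Promoter sequences and gene spans came from RefSeq tables of GRCm38.p6. The members and the gene lists were chosen with earlier results of these data known. Named genes were the 5 members, the 3 related genes with the highest and the 3 with the lowest log2 change of a shared peak, the 3 with the most sham peaks (with a tie for the last place) and, for each member, the gene with the nearest median. A gene that this rule names is not reported here. Scaffold genes outside the other lists were counted but not named. Alternatives covered fold enrichment, false discovery rate, overlap, centring, merging, the fold and the peak that stands for a gene.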

Additional observations from a re-analysis of the deposited data

How the results depend on the processing

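No paired analysis was possible because there was 1 IP and 1 input library for CCI and for sham. With an absolute log2 change of at least 0.5 as the fold, 11 in place of 4 of the 29 shared member peaks passed. Of all shared peaks, 41.5% passed at this setting. The median over shared member peaks stayed between −0.01 and 0.02 under a fold enrichment of at least 2 (26 shared peaks), a false discovery rate below 0.01 (29), 50% shared bases in both peaks (28) and centring on all shared peaks. Every member peak was already below that false discovery rate, and centring shifts all peaks by the same 0.03. Neither setting is therefore a check of the median. Taking the peak with the highest sham fold enrichment in place of the median gave −0.21 for *Nrxn3* and −0.02 for *Nlgn3*, which changes their sign, and −0.16 for *Nrxn2*, 0.02 for *Nlgn1* and −1.80 for *Nlgn2*. The cause was not tested. With the other row of each near-duplicate pair, an alternative chosen after seeing the data, 4 member peaks passed the fold, with a peak of *Nlgn1* (1.26) in place of that of *Nlgn3* (0.99). Without replicates or read counts, counting error and the spread between animals are unknown for every fold enrichment. The lists were called on their own borders and inputs, and a change in the input level of a transcript cannot be told apart from a change in its pull-down.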
